A study of Mus musculus with 48 samples.

Results

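Heat shock and temperature-responsive genes were followed as a set of 10, chosen by symbol from the 22354 genes of the liver count table: Hspa1b, Hspa8, Hsp90aa1, Hsp90ab1, Hspd1, Hspe1, Hsph1, Dnajb1, Cirbp and Rbm3. Each symbol occurred on 1 line of the table, and all 10 genes had enough counts to be tested. The livers came from 48 female C57BL/6J mice, aged 28.75 to 105 weeks, of which 25 were WT and 23 were KO, that is, carried a knockout of the clock gene Bmal1 in adipocytes only. The Cre line behind the knockout is not given in the sources used here, and hepatocytes of KO mice are not the cells targeted. Livers were collected at 6 times a cycle of 24 h apart by 4 h, named ZT0 to ZT20, with 4 mice per genotype and time except at ZT16, where there were 5 WT and 3 KO mice. All mice of both genotypes had spent the last day in darkness without food for 24 h and were kept at room temperature, and no heat or cold was applied.

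Heat shock proteins are chaperones that bind unfolded proteins. Under stress the factor HSF1 switches on their genes through heat shock elements, which are inverted repeats of the unit GAA. Cirbp and Rbm3 encode RNA-binding proteins whose transcripts increase under mild cold and decrease with warmth. In liver the daily cycle of body temperature and feeding is known to drive rhythms in both kinds of gene, so that they are used as markers of systemic cues that reach the liver clock.

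The sequences that HSF1 and cold-linked factors are known to read were looked up in the RefSeq promoter windows of build GRCm38.p6, which run from 250 bases before to 50 bases after a start site. Windows were found for 6 of the 10 genes, namely Hspa1b, Hspd1, Hspe1, Hsph1, Dnajb1 and Cirbp. These are shown because 4 of the 5 chaperone genes among them hold the same letter pattern, Dnajb1 being the exception, and capitals mark the match to a heat shock element or, in Cirbp, to the mild-cold responsive element. Both strands were searched.
Hspe1 (chr1:55088053-55088082, plus strand): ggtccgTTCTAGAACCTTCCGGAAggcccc
Hsph1, before the start (chr5:149636351-149636380, minus strand): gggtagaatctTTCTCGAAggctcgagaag
Hsph1, after the start (chr5:149636287-149636302, minus strand): gaTTCTGGAAAGTTCt
Hspa1b (chr17:34959239-34959388, minus strand): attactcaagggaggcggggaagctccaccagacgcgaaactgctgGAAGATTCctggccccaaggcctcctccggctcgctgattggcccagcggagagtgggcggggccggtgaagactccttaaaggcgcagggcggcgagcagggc
Cirbp (chr10:80167589-80167777, plus strand): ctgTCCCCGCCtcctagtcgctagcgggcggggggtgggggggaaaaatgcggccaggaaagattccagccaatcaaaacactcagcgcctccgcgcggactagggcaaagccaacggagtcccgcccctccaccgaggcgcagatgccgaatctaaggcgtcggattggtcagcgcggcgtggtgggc

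An element of 3 units, with GAA and TTC in alternation and any 2 bases between units, lay in the windows of 3 of the 6 genes, Hspd1, Hspe1 and Hsph1, and in 0.662% of the 27025 genes with a window. The shorter form of 2 units, GAANNTTC or TTCNNGAA, which is contained in the longer one, lay in 4 of the 6, Hspa1b being the fourth, and in 17% of all genes. Hspd1 and Hspe1, which encode the partners of the mitochondrial chaperonin, are transcribed away from each other, and the stretch of overlapping elements printed for Hspe1 lies in the windows of both. It begins 89 bases before the Hspe1 start and stands upstream of the farther of the annotated Hspd1 starts, and downstream of the nearer one. The letters TCCCCGCC, described as a mild-cold responsive element, lay 247 bases before the Cirbp start, in windows of 3 of the 6 genes in all (Cirbp, Hspa1b and Dnajb1, in the latter pair on the opposite strand) and in 6.19% of all genes. A match describes letters in the window and not a bound site.

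In the deposited coordinates of build mm9, Hspa1b lay at chr17:35093381-35096183, Hsph1 at chr5:150416862-150438951, Dnajb1 at chr8:86132074-86135801, Hspa8 at chr9:40609067-40613283, Hsp90aa1 at chr12:111928815-111940938 and Hsp90ab1 at chr17:45704724-45710220. Hspd1 lay at chr1:55134679-55145087, Hspe1 at chr1:55144976-55148151, Cirbp at chr10:79628730-79635531 and Rbm3 at chrX:7716101-7723006. Hspd1 and Hspe1 overlap by 112 bases there on opposite strands, and the table is named as one of sense-strand counts from a stranded kit. Hspa1b has a near-identical copy, Hspa1a, whose promoter window matched that of Hspa1b at 296 of 300 bases. Hspa1a held 0 to 12 counts per library (median 2.5) against 4 to 584 for Hspa1b (median 38.5). How reads that match both copies were counted is not given in the sources used here, so the level of Hspa1b is uncertain to that extent.

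Each library held 12841969 to 13009797 counts without Alb, the serum albumin gene, whose values were not plain counts, so the precision of a value hardly differed between libraries. Libraries did differ in GC slope, the change of log2 level per 10 points of a gene's GC content, which ran from -0.81 to 0.63. It averaged 0.09 ± 0.41 in WT (SD, n = 25) and -0.10 ± 0.39 in KO (SD, n = 23), with the KO mean higher at 3 of 6 times. Hepatocyte markers were high in every library (24010 to 58000 CPM summed over 7 genes), and 1 of 6 lymphocyte markers was lower in KO over all genes tested. In whole liver, fewer cells of a type and less RNA per cell cannot be told apart. The library of 1 KO mouse held pancreatic markers at 271 CPM against at most 11.4 CPM in any WT library, and 1 WT library held lymphocyte markers at 1216 CPM against at most 27.2 CPM in any KO library. Neutrophil markers ran from 1.79 to 434 CPM in WT and from 1.53 to 508 CPM in KO. The part of these in the results was not tested.

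The constitutive chaperone genes were the abundant ones. Scaled to the length of 1 transcript per gene, Hspa8, the housekeeping HSP70, averaged 666 ± 246 CPM per kb in WT (SD, n = 25). Hsp90ab1, the constitutive HSP90, averaged 277 ± 147, Hspe1 241 ± 69.7 and Hspd1 227 ± 39.2 CPM per kb. The inducible Hspa1b was lowest, at 2.49 ± 3.73 CPM per kb. The stress-inducible Hsp90aa1 (53.6 ± 31.1), Cirbp (37.3 ± 16.3), Rbm3 (31.3 ± 13.9), Hsph1 (18.7 ± 12.0) and Dnajb1 (9.66 ± 3.64) lay between, on the same scale. All levels below are CPM, the counts of a gene relative to the total of its library after scaling by edgeR's TMM factors, and are not per length.

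The first question was how these genes moved over the day in WT liver. All 8 chaperone genes had their highest mean at ZT16, in the dark hours of the former light cycle, and the cold-inducible genes Cirbp and Rbm3 had theirs in its light hours. For Hspe1 the ZT16 mean (222 CPM) held 1 mouse of 336 CPM and lay close to the ZT12 mean (218 CPM). The Hspe1 median was lower at ZT16 (195 CPM) than at ZT12 (233 CPM). A fitted cosine of 24 h passed in WT for 9 of 10 genes, against 16.3% of all 13646 genes tested, and the exception was Hsp90ab1. The peaks of the 7 chaperone genes that passed fell between 12 h and 20 h, which together with the call holds for 5.38% of all genes. Cirbp and Rbm3 passed with peaks between 0 h and 12 h, as did 7.86% of all genes. The set was chosen with earlier results of these data known, so these shares are not an independent comparison. The median amplitude, the distance from mean to peak on the log2 scale, was 0.54 for the 8 chaperone genes, 0.44 for the 2228 genes called rhythmic and 0.22 for all genes tested. Mice of different times also differed in mean age, in WT from 42.1 weeks at ZT20 to 73.4 at ZT16. Their mean weight ran from 20.1 g at ZT12 to 24.0 g at ZT4. With age as a covariate the same 9 genes passed in WT.

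**Figure D1:**
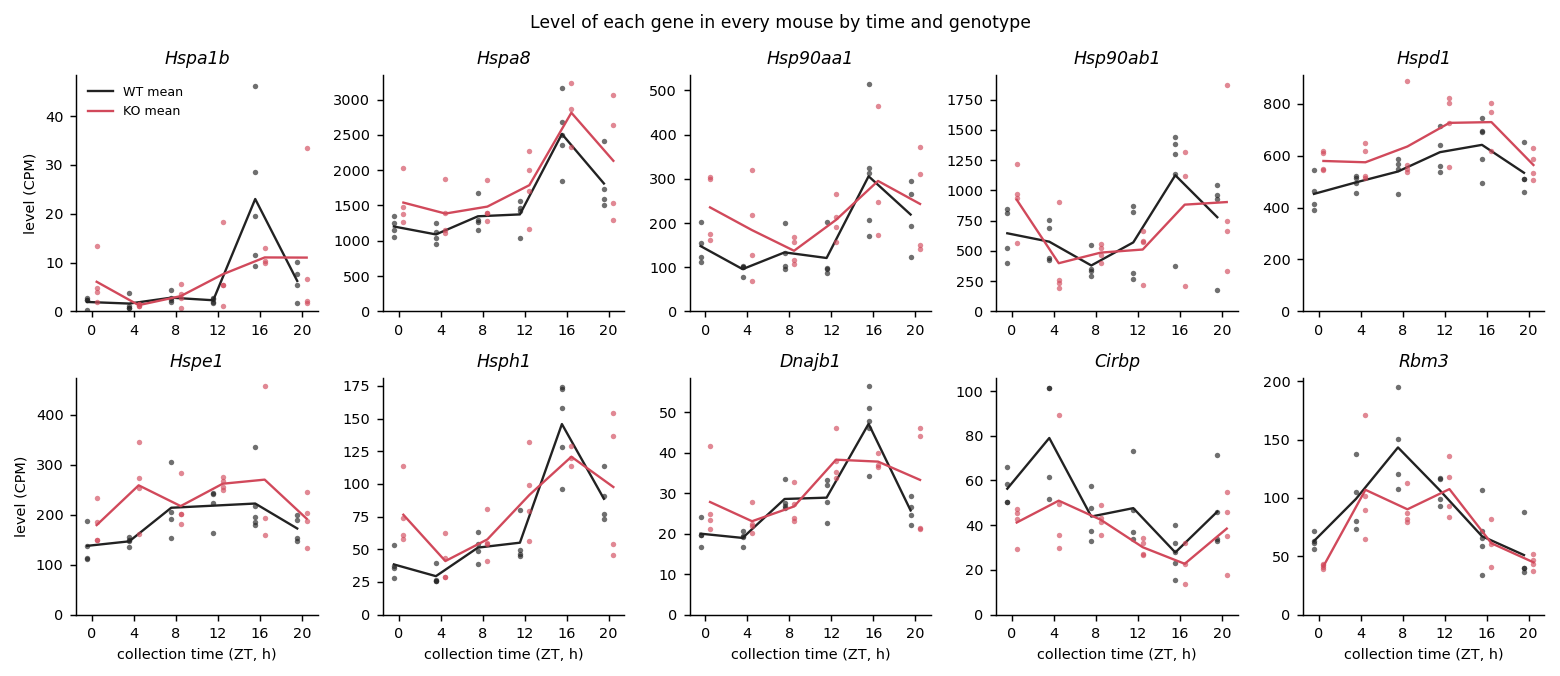
Level in CPM (vertical axis, from 0, on a scale of its own for each gene) against collection time in h (horizontal axis) for the 10 genes. Points are single mice, lines join group means, black is WT and red is KO. Hsph1 climbs from a WT mean of 29.4 CPM at ZT4 to 146 at ZT16, while Cirbp goes from 79.0 at ZT4 to 27.8 at ZT16.

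Hspa1b, the heat-inducible HSP70, had the widest swing. Its WT values at ZT16 were 28.6, 19.5, 9.28, 11.5 and 46.2 CPM, and at ZT4 they were 0.690, 0.764, 1.20 and 3.73 CPM. Every ZT16 mouse stood above every ZT4 mouse, and the means of 23.01 and 1.60 CPM differed 14.4-fold. The means at ZT0, ZT8 and ZT12 were 1.92 ± 1.10, 2.80 ± 1.03 and 2.27 ± 0.436 CPM, and at ZT20 the mean was 6.23 ± 3.56 CPM (SD, n = 4 each). Levels were thus low from ZT0 to ZT12, and neighbouring times in the order of levels overlapped in all 5 steps. The cosine peaked at 16.3 h (SE 0.79) with an amplitude of 1.58 (SE 0.31), and its test gave an adjusted p of 9.8e-05 (edgeR quasi-likelihood test, Benjamini-Hochberg).

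Hsph1, which encodes HSP110, a nucleotide exchange factor for HSP70, followed the same course at a higher level. The WT mice at ZT16 had 172, 174, 95.9, 129 and 158 CPM. Those at ZT4 had 26.1, 26.1, 25.9 and 39.4 CPM. The groups did not overlap and the means differed 4.96-fold. The cosine peaked at 16.3 h (SE 0.50) with an amplitude of 1.01 (SE 0.13; edgeR adjusted p = 5.9e-07). Dnajb1, the J-domain protein that feeds substrates to HSP70 under stress, had 50.9, 47.8, 34.2, 46.1 and 56.5 CPM at ZT16 in WT and 19.2, 16.6, 19.3 and 20.7 CPM at ZT4. Its ZT16 mice lay above all mice of ZT12 (22.5 to 33.3 CPM) too, the only step between neighbours in its order without overlap. The Dnajb1 peak fell at 14.6 h (SE 0.58) with an amplitude of 0.55 (SE 0.08; edgeR adjusted p = 1.9e-05).

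Of the abundant cytosolic chaperones, Hspa8 had 2359, 3167, 1850, 2685 and 2500 CPM in WT at ZT16 against 1034, 948, 1120 and 1257 CPM at ZT4. The ranges were apart, with means 2.31-fold different, and the cosine peaked at 16.5 h (SE 0.64; amplitude 0.52, SE 0.08; edgeR adjusted p = 0.00015). Hsp90aa1 had 312, 514, 171, 207 and 324 CPM at ZT16 and 78.7, 101, 101 and 102 CPM at ZT4, again apart. Its peak came at 17.8 h (SE 0.87; amplitude 0.68, SE 0.15; edgeR adjusted p = 0.0019). Hsp90ab1 spanned 372 to 1439 CPM within the WT mice of ZT16 and 289 to 547 CPM at ZT8, its lowest time. These ranges overlapped, and its cosine did not pass in WT (amplitude 0.51, SE 0.22; edgeR adjusted p = 0.083). The mean GC slope of the WT libraries was also highest at ZT16 (0.24) and lowest at ZT8 (-0.27). The part of the slope in the highest and lowest time of Hsp90ab1 was not tested.

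The mitochondrial pair had the smallest fitted amplitudes and the earliest fitted peaks of the chaperone genes in WT as point values. Differences in peak or amplitude between genes were not tested. Hspd1, the HSP60 chaperonin, had 694, 744, 586, 495 and 691 CPM in WT at ZT16 and 462, 544, 392 and 414 CPM at ZT0, with overlap between the groups. Hspe1, its lid HSP10, had 217, 336, 178, 185 and 195 CPM at ZT16 and 112, 188, 114 and 137 CPM at ZT0, also with overlap. Their fitted peaks were 13.7 h (SE 0.86) and 12.8 h (SE 0.85), with amplitudes of 0.23 (SE 0.05) and 0.38 (SE 0.08). Both passed as cosines in WT (edgeR adjusted p = 0.015 and 0.022) but not when time was a factor of 6 levels (0.128 and 0.135). In that factor test 7 of 10 genes passed in WT, against 8.55% of all genes. The call for Hspe1 was also lost without WT ZT0 replicate 1 (adjusted p = 0.0506) and with body weight as a covariate (0.0586), over a range of 0.0034 to 0.135 in its 58 alternatives.

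The cold-inducible genes peaked earlier than the chaperones, each at a time of its own. Cirbp had 102, 101, 61.4 and 51.6 CPM in WT at ZT4 and 28.04, 15.5, 40.1, 32.2 and 23.2 CPM at ZT16. All ZT4 mice stood above all ZT16 mice, and the means differed 2.84-fold. Its cosine peaked at 3.36 h (SE 0.93; amplitude 0.57, SE 0.14; edgeR adjusted p = 0.0078). Rbm3 was highest at ZT8, with 120, 195, 150 and 108 CPM in WT, and lowest at ZT20, with 36.5, 87.5, 39.6 and 40.3 CPM. These groups were apart as well, although 1 of the ZT20 mice stood far above the others. The Rbm3 cosine peaked at 8.20 h (SE 0.58; amplitude 0.75, SE 0.12; edgeR adjusted p = 5.7e-05). The mean GC slope of the WT libraries was -0.27 at ZT8 and 0.05 at ZT20, and its part in the Rbm3 peak time was not tested. With the slope as a covariate the Rbm3 rhythm in WT also passed (edgeR adjusted p = 1.6e-06).

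The WT calls of 5 genes depended on the ZT16 mice. Without the ZT16 mice of both genotypes, a comparison added after the data were seen, 4 of 10 genes passed in WT, Hspe1, Hsph1, Dnajb1 and Rbm3, against 11.7% of all genes tested there. The adjusted p became 0.264 for Hspa1b, 0.121 for Hspa8, 0.114 for Hsp90aa1, 0.104 for Hspd1 and 0.188 for Cirbp (edgeR).

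In KO liver the highest mean fell at ZT16 for 6 of the 8 chaperone genes, at ZT12 for Dnajb1 and at ZT0 for Hsp90ab1. For Hspe1 the ZT16 mean held 1 KO mouse of 457 CPM, and the median there (193.5 CPM) lay below that at ZT12 (261.5 CPM). The mean GC slope of the KO libraries was highest at ZT0 (0.19) and lowest at ZT4 (-0.33). The KO means of Hsp90ab1 took the same order over the times as these slopes, and the part of the slope was not tested. The cosine test was passed in KO by 5 of 10 genes, Hspa1b, Hspa8, Hsph1, Dnajb1 and Rbm3, against 17% of all genes. The first 4 peaked between 12 h and 20 h (5.09% of all genes) and Rbm3 between 0 h and 12 h (7.62%). With time as a factor of 6 levels 4 of 10 passed, against 9.73% of all genes. Hspa1b in KO had 10.3, 9.91 and 12.9 CPM at ZT16 and 1.48, 1.45, 1.07 and 1.08 CPM at ZT4, which did not overlap. KO mice at ZT20 had 33.5, 2.10, 6.63 and 1.77 CPM, so that a single mouse there exceeded all KO mice of ZT16. Without that mouse, KO ZT20 replicate 1, the Hspa1b cosine no longer passed in KO (adjusted p = 0.077 in place of 0.016, edgeR; range over 58 alternatives 0.0031 to 0.260, the highest without the 8 libraries of extreme GC slope, of which it is one).

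Hsph1 in KO had 114, 120 and 129 CPM at ZT16 and 28.9, 43.1, 62.7 and 29.1 CPM at ZT4, apart again. Its amplitude was 0.69 (SE 0.16) in KO. Amplitudes were lower in KO than in WT for 9 of 10 genes as point values, Hsp90ab1 being the exception. No difference in rhythm passed, however, for any of the 10 genes (edgeR, adjusted p = 0.9999 for each, against 0.00733% of all genes called). None had an unadjusted p under 0.05 in that test either, against 2.66% of all genes, and DESeq2 called 0. Genes that passed in WT and not in KO, Hsp90aa1, Hspd1, Hspe1 and Cirbp, are therefore not shown to differ in rhythm between genotypes. For Cirbp the KO test itself lay at the threshold (edgeR adjusted p = 0.0512; 20 of 58 alternatives passed, range 0.0034 to 0.197).

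**Figure D2:**
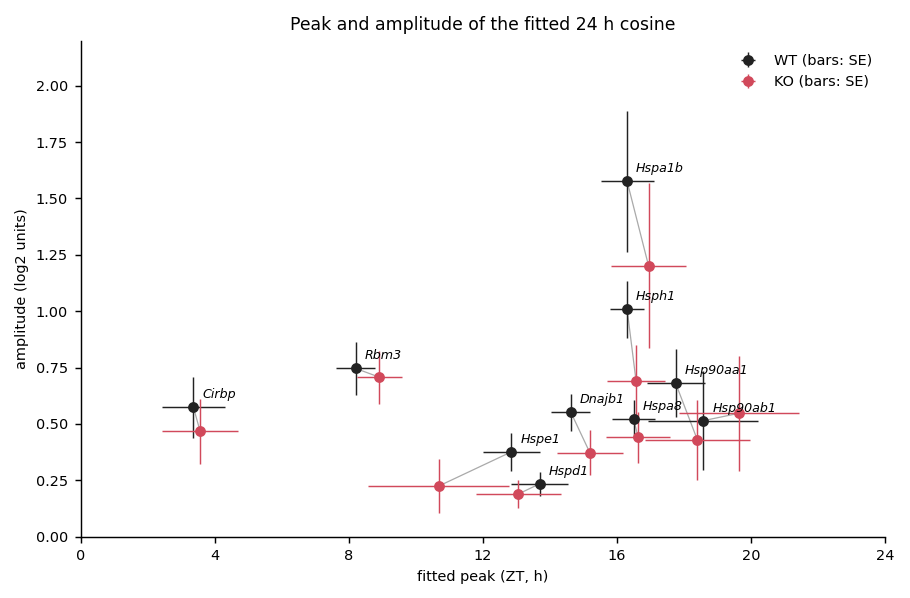
Amplitude in log2 units (vertical axis) against fitted peak in h (horizontal axis) of the 24 h cosine for each gene, WT in black and KO in red, with bars of 1 SE and a grey line joining the genotypes. The chaperone genes lie between 10.7 h and 19.6 h and the cold-inducible genes between 3.36 h and 8.91 h.

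The second question was whether genotype shifted the daily mean of these genes. As the mean over the 6 times, 7 of the 8 chaperone genes were 0.19 to 0.49 log2 units higher in KO and both cold-inducible genes lower, but 0 of 10 passed the test over all genes, against 1.40% of all genes called (0.623% higher in KO and 0.777% lower). By DESeq2 1 of 10 passed, Hspd1 (adjusted p = 0.034), where 356 of all genes were called, against 191 by edgeR. An unadjusted p under 0.05 was found for 8 of 10, of which 6 were higher and 2 lower, against 17.1% of all genes (8.26% higher, 8.87% lower). The median log2 difference was 0.30 for the chaperone genes and -0.32 for the cold-inducible pair, beside -0.01 for all genes tested. The members covary from mouse to mouse, so they are not independent counts of this direction.

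Hspd1 came closest. Its WT values ran from 392 CPM over a median of 538 to 744 (n = 25), and its KO values from 506 over 610 to 888 CPM (n = 23), so the genotypes overlapped widely. The log2 difference was 0.22 (SE 0.07, edgeR adjusted p = 0.077), with the mean higher in KO at 6 of 6 times. Hspe1 was 0.32 higher (SE 0.10; edgeR adjusted p = 0.106), also at 6 of 6 times. Hspa8 was 0.27 higher (SE 0.09; edgeR adjusted p = 0.131) at 6 of 6 times. For Hsph1 the difference was 0.37 (SE 0.13; edgeR adjusted p = 0.125) and for Hsp90aa1 0.42 (SE 0.15; edgeR adjusted p = 0.160), each at 5 of 6 times.

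Among the others, Dnajb1 differed by 0.19 (SE 0.08; edgeR adjusted p = 0.252) and Hspa1b by 0.49 (SE 0.30; edgeR adjusted p = 0.3997), both higher in KO at 4 of 6 times. For Hspa1b the plain mean over all mice was lower in KO (6.49 ± 7.55 CPM, n = 23) than in WT (6.97 ± 10.5 CPM, n = 25). That mean holds 5 WT but 3 KO mice of ZT16, the time of the highest means (23.01 CPM in WT and 11.04 in KO). The log2 value gives each time the same weight. Hsp90ab1 differed by 0.01 (SE 0.21; edgeR adjusted p = 0.987). Cirbp ran from 15.5 over a median of 46.7 to 102 CPM in WT and from 13.6 over 35.6 to 89.2 CPM in KO. It was 0.39 log2 units lower in KO (SE 0.13; edgeR adjusted p = 0.124), at 6 of 6 times, and Rbm3 was 0.25 lower (SE 0.11; edgeR adjusted p = 0.264), at 4 of 6.

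Whether Hspd1, Hspe1 and Cirbp passed in edgeR depended on single libraries. Other fits to all libraries called Hspd1 (DESeq2) or Rbm3 (GC slope as a covariate), and the remaining genes passed in no alternative. Without KO ZT4 replicate 1, Hspd1 (0.22), Hspe1 (0.35) and Cirbp (-0.46) passed, with adjusted p of 0.0470, 0.0437 and 0.0342 (edgeR). Leaving out WT ZT16 replicate 2, or KO ZT16 replicate 1, also made Hspd1 and Hspe1 pass, and leaving out WT ZT20 replicate 3 did so for Hspd1. Calls over all genes rose as well, from 191 to 484 without KO ZT4 replicate 1. They rose to 381 without WT ZT16 replicate 2 and to 328 without KO ZT16 replicate 1. KO mice were heavier than WT mice at 5 of 6 times (group means of 20.15 to 27.95 g in KO and 20.1 to 24.0 g in WT), and with body weight as a covariate Hspa1b stood at 0.17 (SE 0.36) and Dnajb1 at 0.11 (SE 0.10). The Hspa1b difference was 0.22 (SE 0.27) without KO ZT20 replicate 1, and 0.11 (SE 0.30) without the 8 libraries of extreme GC slope. Over 57 alternatives the adjusted p ran from 0.0341 to 0.380 for Hspd1, from 0.0420 to 0.345 for Hspe1 and from 0.0342 to 0.369 for Cirbp.

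**Figure D3:**
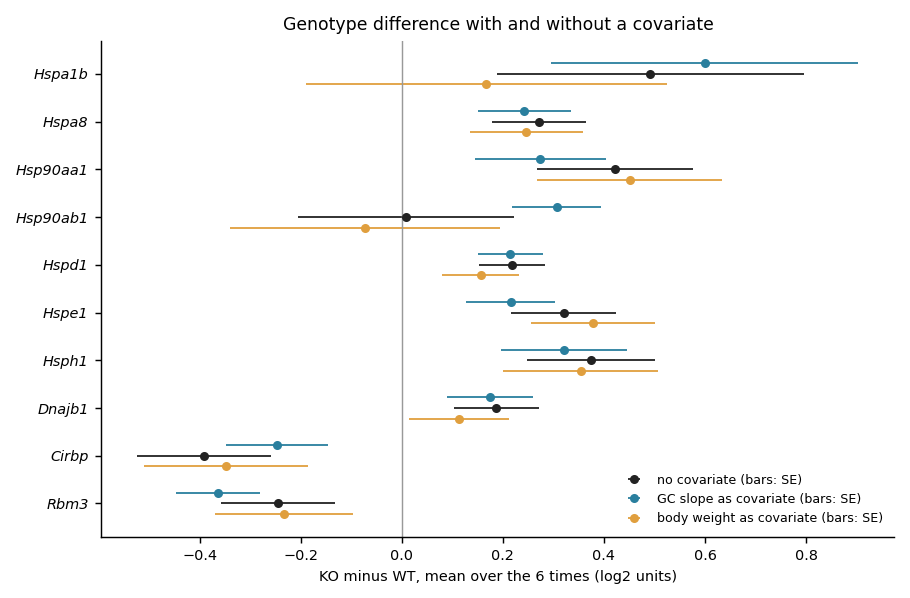
KO minus WT difference in log2 units as the mean over the 6 times (horizontal axis) for each gene (vertical axis), with bars of 1 SE. Black is the fit without covariate, blue has the GC slope of each library as a covariate and orange the body weight. Hsp90ab1 moves from 0.01 to 0.31 with the GC slope, and Rbm3 from -0.25 to -0.36.

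At single times no gene of the set passed (edgeR, 0 of 10 at each of the 6 times, where 0 to 0.0366% of all genes did: 0.0147% at ZT0, 0.0366% at ZT4, 0.022% at ZT16 and 0% at the other times), and DESeq2 called 0 too. An unadjusted p under 0.05 was found at ZT0 for 5 of 10 genes (5.53% of all genes) and at ZT12 for 4 (4.40%). ZT4 had 2 such genes (23.3%), ZT8 had 1 (1.82%), and ZT16 and ZT20 had 0 (6.65% and 1.84%). All 8 chaperone genes had higher KO than WT estimates at ZT0 and at ZT20, 7 at ZT8 and at ZT12, and 6 at ZT4, but only 3 at ZT16. The median log2 difference of the 8 genes was 0.50 at ZT0, 0.39 at ZT12 and -0.16 at ZT16. The interaction of genotype with time passed for 0 of 10 genes, with 0 at an unadjusted p under 0.05 and 0 by DESeq2 (0.00733% and 3.27% of all genes by edgeR).

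ZT0 was the time with most genes whose groups did not overlap, 3 of 10. Hsph1 at ZT0 had 57.6, 73.8, 60.5 and 114 CPM in KO and 27.9, 37.1, 53.1 and 35.3 CPM in WT. Rbm3 had 41.1, 43.1, 42.4 and 38.9 CPM in KO and 71.5, 63.1, 56.0 and 61.4 CPM in WT. Cirbp had 42.8, 45.6, 47.1 and 29.2 CPM in KO and 58.2, 66.2, 50.5 and 50.4 CPM in WT. Thus all KO mice were above all WT mice in Hsph1, as in 1.88% of all genes at this time, and below them in Rbm3 and Cirbp, as in 1.77%. The log2 differences were 0.99 for Hsph1 (SE 0.31; edgeR adjusted p = 0.488), -0.61 for Rbm3 (SE 0.28; 0.812) and -0.45 for Cirbp (SE 0.32; adjusted p = 1).

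Elsewhere the groups were apart for Hspe1 at ZT4, with 161, 274, 346 and 254 CPM in KO over 147, 150, 154 and 135 CPM in WT, as in 3.81% of all genes with KO above WT. That difference was 0.82 log2 units (SE 0.26; edgeR adjusted p = 0.122). The GC slopes of these KO libraries were 0.52, -0.33, -0.81 and -0.69, in the same order, and those of the WT libraries 0.56, 0.34, 0.02 and -0.03. The genotypes' mean slopes were thus farthest apart at ZT4 (-0.33 in KO and 0.22 in WT), and the part of this in the difference was not tested. At ZT12 Hspe1 and Dnajb1 were apart, with KO above WT as in 1.35% of all genes. Hspe1 there had 276, 250, 267 and 256 CPM in KO and 224, 242, 164 and 243 CPM in WT. Dnajb1 had 35.3, 33.8, 45.9 and 38.0 CPM in KO and 27.7, 31.9, 33.3 and 22.5 CPM in WT. The mean GC slope at ZT12 was -0.22 in KO and 0.08 in WT, and its part in these differences was not tested. At ZT16, the time of the chaperone peak, the KO mice with 10.3, 9.91 and 12.9 CPM of Hspa1b lay inside the range of the WT mice, 9.28 to 46.2 CPM. No gene of the set had groups apart at ZT8, ZT16 or ZT20, nor with KO below WT at ZT4 or ZT12. Of all genes, KO stood above WT without overlap in 0.879% at ZT8, 0.579% at ZT16 and 0.623% at ZT20. Shares with KO below WT were 3.98% (ZT4), 0.791% (ZT8), 1.9% (ZT12), 0.594% (ZT16) and 0.476% (ZT20).

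The wider chaperone pathway was taken from lists chosen by known role, with earlier results of these data known. It gave 0 genes past the threshold for KO minus WT in any list, against 1.40% of all genes. Of 17 co-chaperones of HSP70 and HSP90, 8 were higher and 1 lower at an unadjusted p under 0.05 (median 0.12), against 8.26% and 8.87% of all genes. In the other lists 0 genes were lower. Higher were 1 of 10 relatives of the heat shock proteins (median -0.047) and 1 of 6 HSF factors and regulators (-0.013). So were 1 of 9 other mitochondrial chaperones and proteases (-0.007), 2 of 8 TRiC chaperonin genes (0.067) and 3 of 10 splicing regulators (0.135). Among the co-chaperones the smallest p was that of Ppid, the HSP90-bound cyclophilin 40, which differed by 0.25 (SE 0.08; edgeR adjusted p = 0.092). As rhythms in WT, 7 of the 17 passed, all with peaks from 12 h to 20 h, against 16.3% of all genes, 5.38% with such a peak. Chordc1, an HSP90 partner, peaked at 15.3 h (SE 0.74; edgeR adjusted p = 0.00013), Ahsa2, a relative of the HSP90 activator Aha1, at 16.2 h (SE 0.77; 0.00015), and Dnaja1, a J-domain co-chaperone, at 14.1 h (SE 0.89; 0.00082).

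Among relatives of HSP70, HSP90 and the small heat shock proteins, 6 of 10 tested genes passed in WT, 5 with peaks from 12 h to 20 h and 1 earlier. Of all genes 16.3% passed, 5.38% with a peak from 12 h to 20 h and 7.86% with one from 0 h to 12 h. Hspb1, the small heat shock protein HSP27, peaked at 18.9 h (SE 0.72; edgeR adjusted p = 0.00032), Serpinh1, the collagen chaperone HSP47, at 17.5 h (SE 0.73; 0.00049), and Hspa2, an HSP70 of the testis, at 15.9 h (SE 0.82; 0.00073). The earlier one, Hspa14, an HSP70 of the ribosome-associated complex, named after its values were seen, peaked at 4.24 h (SE 1.22; edgeR adjusted p = 0.043). Of 6 HSF factors and regulators, 2 passed in WT: Bag3, a nucleotide exchange factor induced by HSF1, at 16.9 h (SE 0.95; 0.0047), and Hsbp1, an HSF1-binding protein, at 8.76 h (SE 0.60; 0.0039). Hspa4l (0.28, SE 0.12) had the smallest p for genotype among the relatives and Hsbp1 (0.11, SE 0.05) among the regulators, and neither passed (edgeR adjusted p = 0.206 and 0.250).

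Of the 8 subunit genes of the cytosolic chaperonin TRiC, 0 passed as rhythms in WT by edgeR. Among all genes 16.3% passed, and the counts for the other lists of this paragraph lie near that share. Cct7 had the smallest p, with a fitted peak at 15.5 h (unadjusted p = 0.012, edgeR adjusted p = 0.065), and that of Cct4 lay at 13.9 h (unadjusted p = 0.015, edgeR adjusted p = 0.074). Its smallest p for genotype was that of Cct4 (0.23, SE 0.09; edgeR adjusted p = 0.175). Of 9 other mitochondrial chaperones and proteases, 1 passed in WT, Clpx, the ATPase of the ClpXP protease, with a peak at 22.4 h (SE 0.28; edgeR adjusted p = 1.4e-10), unlike the times of Hspd1 and Hspe1. Clpx also had the list's smallest p for genotype (0.24, SE 0.11; edgeR adjusted p = 0.280). Of 10 splicing regulators linked to temperature, 2 passed in WT, Tra2a at 15.5 h (SE 0.98; edgeR adjusted p = 0.0093) and Srsf5 at 6.71 h (SE 1.15; 0.039). The temperature-sensed kinase gene Clk1 differed by 0.29 between genotypes (SE 0.11; edgeR adjusted p = 0.182).

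Over the 12 group means, 9735 genes that reached an average log2 CPM of 2 were ranked by how closely they followed Hsph1 and Cirbp. The 5 most like Hsph1 were Ahsa2 (r = 0.956), Bicd2 (0.947), Spg20 (0.946), Hspa8 (0.944) and Gm8355 (0.932). Of the set, Hspa1b, which lies under that level, had r = 0.974, Dnajb1 0.901, Hsp90aa1 0.898, Hspd1 0.681, Hsp90ab1 0.608 and Hspe1 0.451. Among those most like Cirbp were Tmem203 (0.955), Nosip (0.935), Zfp687 (0.932) and Sh3bp2 (0.928). Cirbp itself ran against Hsph1 (-0.908) and Hspa8 (-0.928), and Rbm3 followed it weakly (0.259). These values describe 12 points that share time, libraries and scaling.

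The genes also varied together between mice of the same group. Each gene's log2 CPM was taken as the deviation from its group mean, and all 45 pairs were correlated over the 48 mice with permutation within groups. Of these, 22 pairs had a Benjamini-Hochberg adjusted p under 0.05. Hspa8 and Hsph1 had the highest Pearson value (r = 0.833, Spearman rho = 0.753, permutation p = 1e-05 for each, the smallest that 100000 draws can give; adjusted 0.00011 and 9e-05). The highest Spearman value was that of Hsp90aa1 and Hsph1 (rho = 0.817, r = 0.785; permutation p = 1e-05 for each; adjusted 9e-05 and 0.00011; r = 0.773 without the 2 farthest mice). For Hspa8 and Hsph1 without the 2 mice farthest from the median of Hspa8, r was 0.788, and it was 0.693 in WT mice and 0.895 in KO mice. Hspd1 and Hspe1 had r = 0.576 (rho = 0.591; permutation p = 4e-05 and 6e-05; adjusted 0.00018 and 0.00025), and 0.603 without the 2 farthest mice.

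Mice with more Hsph1 RNA than their group had less Cirbp RNA. For Hsph1 and Cirbp r was -0.649 (rho = -0.655; permutation p = 2e-05 and 4e-05; adjusted 0.00011 and 0.00018). It was -0.665 without the 2 farthest mice, -0.693 in WT mice and -0.641 in KO mice. Cirbp and Rbm3, in contrast, showed no shared deviation that passed (r = -0.318, rho = -0.248; permutation p = 0.092 and 0.158; adjusted 0.138 and 0.230).

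**Figure D4:**
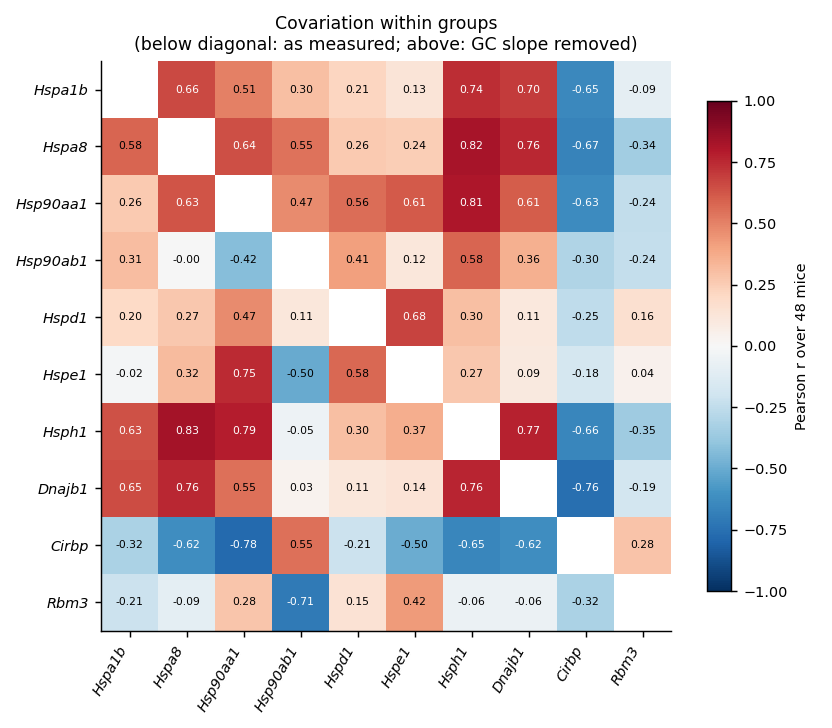
Pearson correlation over 48 mice of the deviations from the group mean for each pair of genes, as measured below the diagonal and after removal of the GC slope of the library above it. Red is positive and blue negative. Hspa8 and Hsph1 stand at 0.83 and Hsph1 and Cirbp at -0.65 as measured.

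Part of this covariation moved with the libraries' GC slope. Hsp90ab1 followed the slope closely (r = 0.930, rho = 0.908, permutation p = 1e-05 for each; adjusted 0.0003 for each over 30 relations with slope, weight and age; r = 0.916 without the 2 farthest libraries). Cirbp went with it too (r = 0.676, rho = 0.601; permutation p = 0.00011 and 0.00031; adjusted 0.0011 and 0.0031; 0.591 without the 2 farthest). Rbm3 (r = -0.693), Hsp90aa1 (-0.602) and Hspe1 (-0.578) went the other way (permutation p = 2e-05, 0.00095 and 0.0013; adjusted 0.0003, 0.0071 and 0.0076; rho = -0.594, -0.556 and -0.538). The GC content of the Hsp90ab1 transcript used was 51.0%, that of Hspa8 51.2% and that of Hspe1 51.7%, so genes of like content differed in this relation. Rbm3 and Hsp90aa1 had the lowest contents of the set (41.5% and 43.7%), and Cirbp had 53.7%. Hspa1b had the highest (58.1%), with r = 0.22 to the slope. No relation of the 10 genes with body weight or age had an adjusted p under 0.05.

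**Figure D5:**
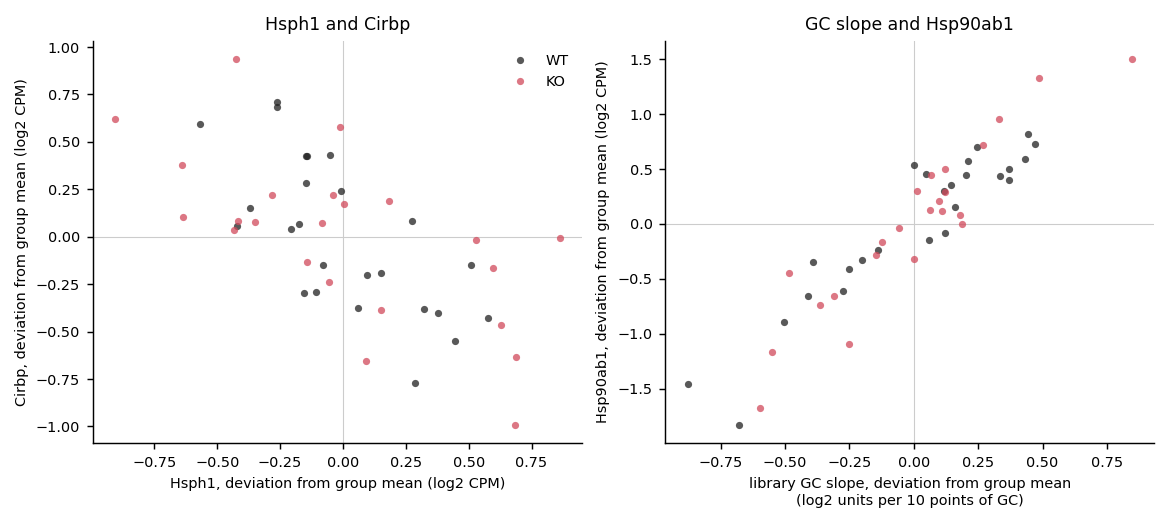
Deviation from the group mean in single mice, WT in black and KO in red. On the left Cirbp (vertical axis, log2 CPM) is plotted against Hsph1 (horizontal axis, log2 CPM), with r = -0.65, and on the right Hsp90ab1 against the GC slope of the library (log2 units per 10 points of GC), with r = 0.93.

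With the slope removed, all 28 pairs of chaperone genes had positive correlations, from 0.094 to 0.825, where 23 of 28 were positive as measured. Hsph1 and Cirbp kept a value of -0.656, and that of Cirbp and Rbm3 turned to 0.284. With the slope as a covariate in the genotype fit, Hsp90ab1 was 0.31 higher in KO (SE 0.09; edgeR adjusted p = 0.068) and Rbm3 0.36 lower (SE 0.08; edgeR adjusted p = 0.016), the only gene of the set to pass there. Over their alternatives the adjusted p of Rbm3 ran from 0.016 to 0.423 and that of Hsp90ab1 from 0.068 to 0.9999. The fit with the slope called 209 of all genes for KO minus WT, against 191 without it. With the slope as a covariate Hsp90ab1 also passed as a rhythm in WT (edgeR adjusted p = 0.015). So did 4058 of all genes, against 2228 without the slope. In the genotype fit with the slope Cirbp stood at -0.25 (SE 0.10; edgeR adjusted p = 0.232), against -0.39 without the covariate. Hsp90aa1 stood there at 0.27 (SE 0.13), against 0.42, and Hspe1 at 0.22 (SE 0.09), against 0.32.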

How the data were processed

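The authors deposited one table of read counts per gene for the 48 libraries, whole numbers with mm9 coordinates, per the file headers. PolyA RNA was made into stranded TruSeq libraries over 3 days with 13 PCR cycles, per the labels' protocols, and reads were handled with CASAVA and STAR 2.4.1d on mm9, per the submitters' processing notes. The counter, the annotation and any equalising of depth are not given in the sources used here, nor is the day on which each library was made. The labels give single mice as samples, and same-group pairs differed far beyond counting noise (chi-square per degree of freedom of at least 21.1). Values for Alb were multiples of 1311.614 (within 0.00094 of a whole step) at 5.66% to 14.6% of counts, so this 1 line was left out.

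In R 4.3.3, edgeR 4.0.16 fitted quasi-likelihood models to the counts (filterByExpr, TMM factors 0.892 to 1.11) over all 13646 genes tested: 12 group means for genotype, and a 24 h cosine per genotype for rhythm, with Benjamini-Hochberg adjustment and a threshold of 0.05. Amplitudes, peaks and their SE come from least squares on log2 CPM (prior count 2). GC content and length come from 1 transcript per gene of GENCODE on GRCm38. Models were tested on simulated data. All 10 members are named; from each pathway list up to 3 genes past a threshold with the smallest p (genotype) or largest amplitude (rhythm), else the gene with the smallest p. A gene that the likeness ranking names is not reported here. The members and lists were chosen with earlier results of these data known. Intervals reflect mouse-to-mouse spread. Alternatives were RLE factors, DESeq2 1.42.0, no filter, a robust prior, weight, age or GC slope as covariates, a replicate block, time as a factor, leaving out each library, leaving out 8 libraries of extreme GC slope, and leaving out ZT16.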

Additional observations from a re-analysis of the deposited data

Results flagged for a closer look

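In 13 of 110 groups of 4 or 5 mice, 1 mouse stood apart from its group by a gap larger than Dixon's 95% limit, where chance flags about 1 in 20 groups, and 10 of these mice were high and 3 low. The groups share mice and the genes covary, so the 13 are not independent.

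For Hsp90ab1, KO ZT4 replicate 1 had 907 CPM (others 193 to 257), WT ZT16 replicate 2 had 372 CPM (others 1133 to 1439) and WT ZT20 replicate 2 had 180 CPM (others 929 to 1043). These libraries had GC slopes of 0.52, -0.64 and -0.63. Of the same libraries, WT ZT16 replicate 2 had 336 CPM of Hspe1 (others 178 to 217) and WT ZT20 replicate 2 had 87.5 CPM of Rbm3 (others 36.5 to 40.3).

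WT ZT12 replicate 2 was high in Hsp90aa1, at 201.4 CPM (others 87.7 to 97.5), and in Hsph1, at 79.8 CPM (others 44.5 to 49.6). WT ZT4 replicate 4 was high in Hspa1b, at 3.73 CPM (others 0.690 to 1.20), and in Hsph1, at 39.4 CPM (others 25.9 to 26.1), and WT ZT4 replicate 1 was low in Hsp90aa1, at 78.7 CPM (others 101 to 102). KO ZT20 replicate 1 had 33.5 CPM of Hspa1b (others 1.77 to 6.63). KO ZT8 replicate 2 had 888 CPM of Hspd1 (others 538 to 566), and WT ZT8 replicate 2 had 33.5 CPM of Dnajb1 (others 26.3 to 27.5).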

How the results depend on the processing

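The direction of KO minus WT held for 9 of the 10 genes in every alternative. That of Hsp90ab1, 0.01, turned with body weight (-0.0736), with the replicate block (-0.0019), without the libraries of extreme GC slope (-0.0306), and on leaving out 22 of 48 libraries (range -0.13 to 0.0873). Genes of the set past the threshold for KO minus WT numbered 0, but 1 with the GC slope as covariate, 1 by DESeq2 and 0 to 3 on leaving out each library, and at single times 0 to 3 (3 without KO ZT4 replicate 1, 1 without KO ZT16 replicate 3). The 9 rhythms in WT became 4 without ZT16 and 8 to 10 on leaving out each library, and the 5 in KO became 8 with body weight and 4 to 6 on leaving out each library. Leaving out each library gave 0 calls of an interaction or of a rhythm difference, and 6 to 8 genes with an unadjusted p under 0.05.

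Over all genes, the 191 calls for KO minus WT became 122 without the filter, 37 with body weight, 356 by DESeq2 and 127 with the replicate block, and 99 to 484 on leaving out each library (484 for KO ZT4 replicate 1, 125 for KO ZT4 replicate 3, 381 for WT ZT16 replicate 2, and 328, 363 and 99 for replicates 1, 2 and 3 of KO ZT16). The 2228 rhythms in WT became 4058 with the GC slope and 1167 with time as a factor, and 1875 to 2986 on leaving out each library. The 2322 in KO became 1328 with time as a factor and 1629 to 3687 on leaving out each library (3687 without KO ZT16 replicate 3). The causes were not tested.

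The replicate block changed no call of the 10 genes for KO minus WT, the interaction or the difference in rhythm. It takes up the times, so that it gives no rhythm test within WT or KO. Same-numbered mice had the same age in 22 of 23 pairs, and the correlation of their deviations ran from -0.39 to 0.49 (over 0.1 in 13 of 23 pairs). The labels name no litter, batch or day that a number marks. With 3 to 5 mice per group the SE of a difference at a single time was 0.16 to 0.82 log2 units, and the low counts of Hspa1b limit its precision.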
